A study of Mus musculus with 12 samples.

Results

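The 10 genes described here code for C-type lectin receptors of myeloid cells and were chosen by name as Clec4d, Clec4e, Clec4n, Clec7a, Clec5a, Clec12a, Clec4a1, Clec4a2, Clec4a3 and Clec10a. They are 10 of the 47643 genes in the count table, and all 10 were among the 13681 genes with enough counts to be tested. Bulk RNA-seq. was carried out on osteoclasts grown for 3 days with M-CSF and RANKL from monocytes of the bone marrow (BMMs), taken from WT mice of the BALB/c strain whose age is not given in the sources used here. Each of the 3 groups held 4 libraries, described by the study as biological replicates. OCsCtr was left untreated. OCsEo received, from day 0 and for 48 h, sorted eosinophils of hyper-eosinophilic IL-5tg/4get mice at a BMMs/Eos ratio of 1:2. OCsEoS received eosinophil supernatant in a 1:2 dilution for the same time. The stimuli were then removed, the cells were washed and given fresh medium, and all groups were harvested on day 3. Some eosinophil markers were higher in OCsEo than in OCsCtr at harvest and others were not, as given with the markers at the end. RNA came from the whole culture, and the donor mice of the eosinophils carry an IL-5 transgene. In such bulk RNA, fewer cells of a type and less RNA per cell cannot be told apart.

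C-type lectin receptors recognize sugars, lipids and products of dying cells at the surface of monocytes, macrophages, neutrophils and dendritic cells. Osteoclasts arise from precursors of the monocyte and macrophage lineage. The activating members couple to an ITAM (an immunoreceptor tyrosine-based activation motif), which either sits on an adaptor such as the Fc receptor gamma chain (Fcer1g) or DAP12 (Tyrobp) or, in a shortened form, on the receptor itself. The ITAM recruits the kinase Syk, and Card9 passes the signal on to NF-kB. The inhibitory members carry an ITIM, which recruits phosphatases and dampens such signals. Osteoclast formation itself needs ITAM signals beside RANK signaling, and the adaptors are therefore shared between both systems.

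Total counts per library lay between 27837530 and 40327869, and the 10 genes together held 0.157 to 0.175% of them. Single counts of the 10 genes ranged from 210 for Clec10a to 23682 for Clec4a2. The osteoclast label was checked on 11 osteoclast markers, whose summed level was 28476 to 34614 CPM (counts scaled to a common library size by TMM) in OCsCtr, 18206 to 23314 CPM in OCsEo and 15037 to 22277 CPM in OCsEoS. Most of this sum was Ctsk, Mmp9 and Acp5, with means of 12122, 8439 and 7158 CPM in OCsCtr. The library OCsCtr 1 lay at an end of the untreated range in each of the 10 receptor genes. It was the lowest of the 4 in Clec4e, Clec4n, Clec7a, Clec12a, Clec4a1, Clec4a2 and Clec4a3 and the highest in Clec4d, Clec5a and Clec10a. The outlier check given at the end flagged it in none of them. Values without OCsCtr 1 are given for all 10 genes.

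In GRCm38 coordinates of the table, 9 of the 10 genes lie on chromosome 6 and Clec10a lies on chromosome 11, and all 10 positions equalled those of the GENCODE vM21 annotation. Clec4d (6:123262111-123275265, plus strand) and Clec4e (6:123281789-123289870, minus strand) are neighbours whose starts are 27.8 kb apart, and Clec4n (6:123229843-123247021, plus strand) starts 32.3 kb before Clec4d. RefSeq promoter windows of GRCm38.p6 (250 bases before to 50 after a start) were found for 8 of the 10 genes, in 10 windows, and no window of Clec4n or Clec10a was used here. The upstream bases of Clec4d and Clec4e are shown because the receptors pair with each other at the protein level and are neighbours, while only Clec4d was called in the comparisons reported here. The Clec4d stretch is chr6:123261857-123262106 on the plus strand and the Clec4e stretch is chr6:123289872-123290121 on the minus strand. Both are written 5′ to 3′ toward the start. Capitals mark GAGGAA (the core that PU.1, the master factor of myeloid cells, can bind) and, in Clec4e, also TTGCNNAA (C/EBP), each on either strand.
Clec4d: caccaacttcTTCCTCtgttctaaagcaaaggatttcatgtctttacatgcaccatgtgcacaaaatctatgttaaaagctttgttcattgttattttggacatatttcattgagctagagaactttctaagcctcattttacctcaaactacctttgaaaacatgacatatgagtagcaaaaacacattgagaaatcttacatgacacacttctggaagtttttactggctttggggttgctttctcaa
Clec4e: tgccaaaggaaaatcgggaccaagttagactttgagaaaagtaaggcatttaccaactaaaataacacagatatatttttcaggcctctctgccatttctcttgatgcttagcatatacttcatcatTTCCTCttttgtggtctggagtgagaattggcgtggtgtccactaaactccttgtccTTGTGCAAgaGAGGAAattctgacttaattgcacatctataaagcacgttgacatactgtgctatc
GAGGAA occurred on either strand in 8 of the 10 windows, where 28.3% of all 32851 windows of this length held it. These belong to 7 of the 8 genes, namely Clec4d, Clec4e, Clec5a, Clec7a, Clec12a, Clec4a1 and Clec4a3. The windows of Clec7a overlap and share their match, and a further window of Clec4a3 held none. In Clec4d the match lies 240 bases before the start, and the window had further matches 7 and 39 bases after it. In Clec4e, matches lie 123 and 56 bases before the start, and the C/EBP letters lie 66 bases before it. TTGCNNAA was also in the Clec12a window, against 10.8% of all windows, and TGANTCA (AP-1) was in those of Clec12a and Clec4a2, against 7.81%. CACGTG (the E-box) was in none of the windows, with 7.15% in all, and the NF-kB motif was in none, with 0.411% in all. The matches are a description of letters and were not tied to binding.

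Which receptors do osteoclast cultures express? Levels between genes were compared per length, as CPM per kilobase of the gene length in the table. In OCsCtr, Clec4a2, the inhibitory receptor DCIR with an ITIM, had the highest level with 221 ± 15.1 CPM per kb (SD, n = 4), before Clec4d, the activating receptor MCL, with 138 ± 9.14 CPM per kb and Clec12a, the inhibitory receptor MICL, with 87.0 ± 5.85 CPM per kb. Clec4n, the receptor Dectin-2 for fungal mannans, followed with 51.3 ± 8.34 CPM per kb and overlapped with Clec4a3, a DCIR relative, with 51.2 ± 4.26 CPM per kb. Clec4a1, another DCIR relative, had 24.8 ± 2.59 CPM per kb. Clec5a, Clec7a and Clec4e lay at 12.2, 9.27 and 7.52 CPM per kb, and in this order each overlapped with the next. Clec10a, the galactose-binding receptor MGL1, was lowest with 2.73 ± 0.511 CPM per kb. All other neighbours in this order had ranges that did not overlap over the 4 libraries.

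After stimulation the order per kilobase changed at its top. Clec4d reached 226 ± 22.4 CPM per kb in OCsEo (193 to 243) beside 199 ± 8.84 CPM per kb for Clec4a2 (190.0 to 207), with overlapping ranges. In OCsEoS, Clec4d had 255 ± 26.4 CPM per kb (222 to 284) and Clec4a2 had 202 ± 6.92 CPM per kb (194 to 211). These ranges did not overlap. This order rests on the lengths used, 1599 bases for Clec4d and 2926 for Clec4a2. In CPM not divided by length, mean Clec4d stayed below Clec4a2, at 362 beside 581 CPM in OCsEo and 408 beside 590 CPM in OCsEoS. It also stayed below mean Clec12a, which had 495 and 434 CPM. The summed level of the 10 genes was 605 ± 26.9 CPM per kb in OCsCtr, 654 ± 34.5 in OCsEo and 677 ± 18.8 in OCsEoS. Of this sum, Clec4d held 22.8 ± 2.46% in OCsCtr (20.6 to 26.3%), 34.5 ± 2.06% in OCsEo (32.0 to 37.0%) and 37.7 ± 3.11% in OCsEoS (34.1 to 40.8%). Its share in every stimulated library was above its share in every untreated one. The share of Clec4a2 was 36.6, 30.4 and 29.8% and that of Clec4n was 8.45, 5.69 and 6.04% in OCsCtr, OCsEo and OCsEoS. These shares add up to 100% in each library, so that they do not move independently of Clec4d.

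**Figure D1:**
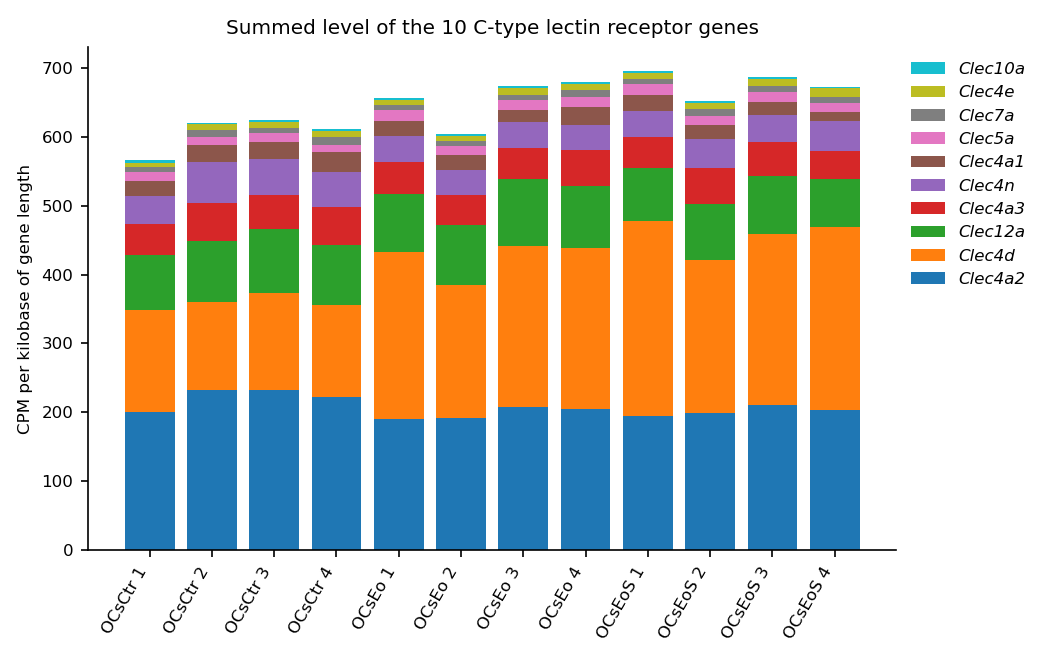
Stacked bars show CPM per kilobase of the 10 receptor genes in each of the 12 libraries, with the axis starting at 0. The Clec4d segment is taller in all 8 stimulated libraries (193 to 284 CPM per kb) than in the 4 OCsCtr libraries (128 to 149 CPM per kb), while the whole bars lie between 566 and 696 CPM per kb.

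The comparisons with OCsCtr ask which genes change in osteoclasts upon contact with eosinophils or with what they secrete. Calls required that the adjusted p (edgeR's quasi-likelihood F-test, Benjamini-Hochberg over all genes tested) was under 0.05 and that the log2 fold change was over 0.5 in size. Of the 10 receptor genes, 1 was called in OCsEo versus OCsCtr and it was higher, where 5.88% of all tested genes were called in either direction. Likewise 1 of 10 was called, and was higher, in OCsEoS versus OCsCtr, where 7.73% of all tested genes were called. Both calls were Clec4d. The median log2 fold change of the 10 genes was -0.05 in OCsEo and -0.10 in OCsEoS, beside -0.01 over all tested genes in each comparison. Both comparisons use the same 4 OCsCtr libraries and are given side by side.

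Clec4d was the gene with the largest change of the 10 in both comparisons. MCL, its product, is an Fcer1g-coupled receptor for mycobacterial glycolipid that supports surface expression of Mincle. Its CPM in the 4 OCsCtr libraries was 238, 204, 225 and 214. In OCsEo it was 389, 309, 375 and 374 CPM, and in OCsEoS it was 454, 355, 397 and 426 CPM. The highest untreated library was below the lowest stimulated library of either kind, and replicate 2 was lowest in each group. Clec4d rose 1.64-fold in OCsEo (95% interval 1.46 to 1.84, log2 0.71 ± 0.08 SE, adjusted p = 5.40e-06) and 1.85-fold in OCsEoS (95% interval 1.65 to 2.08, log2 0.89 ± 0.08 SE, adjusted p = 8.58e-07). Among all tested genes, these log2 fold changes stood at percentiles 95.4 and 97.1. Without OCsCtr 1 they were 0.75 and 0.92.

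Clec4n, which lies next to Clec4d in the same orientation and also signals through Fcer1g, had the opposite sign. Its CPM was 57.1, 85.5, 76.0 and 72.9 in OCsCtr, 55.1, 51.2, 52.9 and 51.6 in OCsEo and 53.4, 58.9, 56.5 and 63.3 in OCsEoS. All 4 OCsEo libraries were below all 4 OCsCtr libraries, the gap to OCsCtr 1 being small, whereas 2 of the OCsEoS libraries were above OCsCtr 1. The log2 fold change was -0.47 ± 0.10 (SE, 95% interval -0.67 to -0.27, adjusted p = 0.00183) in OCsEo and -0.33 ± 0.10 (95% interval -0.53 to -0.13, adjusted p = 0.0159) in OCsEoS. Both passed the adjusted p and neither passed the cut-off on the fold change. Without OCsCtr 1, Clec4n was called in OCsEo (log2 -0.57, adjusted p = 1.21e-04) but not in OCsEoS (log2 -0.44). Without OCsCtr 2, the highest library, its OCsEoS value no longer passed the adjusted p (log2 -0.24, adjusted p = 0.0929).

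With the adjusted p alone, 2 of the 10 genes passed in OCsEo (Clec4d higher, Clec4n lower) beside 17.4% of all tested genes, and 3 of 10 passed in OCsEoS (Clec4d higher, Clec4n and Clec4a1 lower) beside 23.0%. Groups that did not overlap were found for Clec4d and Clec4n in OCsEo, against 21.5% of all tested genes, and for Clec4d in OCsEoS, against 25.7%. These counts, from 1 to 3 of the 10 genes, lie near the shares over all tested genes or below them.

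**Figure D2:**
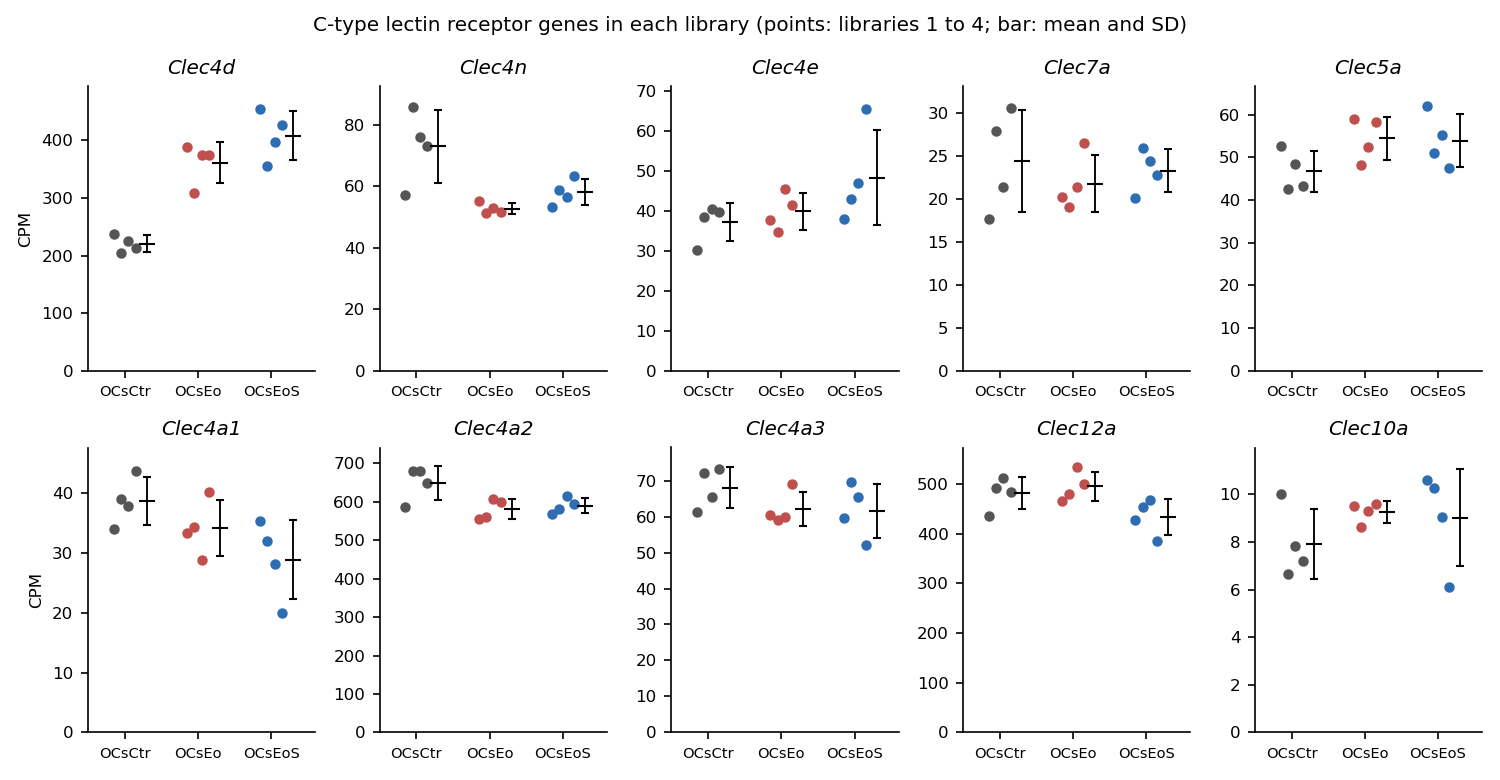
Each panel shows 1 receptor gene as CPM per library (points, replicates 1 to 4 from left to right) in OCsCtr, OCsEo and OCsEoS, with mean and SD at the right of each group and axes from 0. The Clec4d groups are separated, at 204 to 238 CPM in OCsCtr and 309 to 454 CPM in the stimulated libraries, whereas the points of the other 9 genes overlap between OCsCtr and OCsEoS.

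Clec4e, which codes for Mincle, a receptor for mycobacterial cord factor and for the nuclear protein Sap130 released by dying cells, was not called in either comparison. Its CPM was 30.3, 38.6, 40.5 and 39.8 in OCsCtr, 37.8, 34.9, 45.7 and 41.5 in OCsEo and 38.0, 43.1, 47.2 and 65.6 in OCsEoS. The groups overlapped, and OCsEoS 4 was the highest of all 12 libraries. The log2 fold change was 0.10 ± 0.14 (95% interval -0.19 to 0.38, adjusted p = 0.700) in OCsEo and 0.38 ± 0.14 (95% interval 0.09 to 0.66, adjusted p = 0.0521) in OCsEoS. Over the 23 alternatives tried, the OCsEoS adjusted p ranged from 0.00658 to 0.261 and was under 0.05 in 10 of them, and without OCsEoS 4 the log2 fold change was 0.20.

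Genes around Clec4d were looked at within 350 kb on either side of its start. This window held 21 genes, of which 9 were tested and 6 of these are among the 10 receptors. Apart from Clec4d, none of the 9 was called in either comparison. Clec4a4 and Clec4b1, the tested lectin genes in the window outside the 10, had log2 fold changes of -0.09 and 0.08 in OCsEo and 0.04 and -0.36 in OCsEoS, and both 95% intervals of each included 0. The remaining tested gene was the pseudogene Gm44132 with at most 17 counts, which overlaps Clec4a2 without sharing exon bases.

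**Figure D3:**
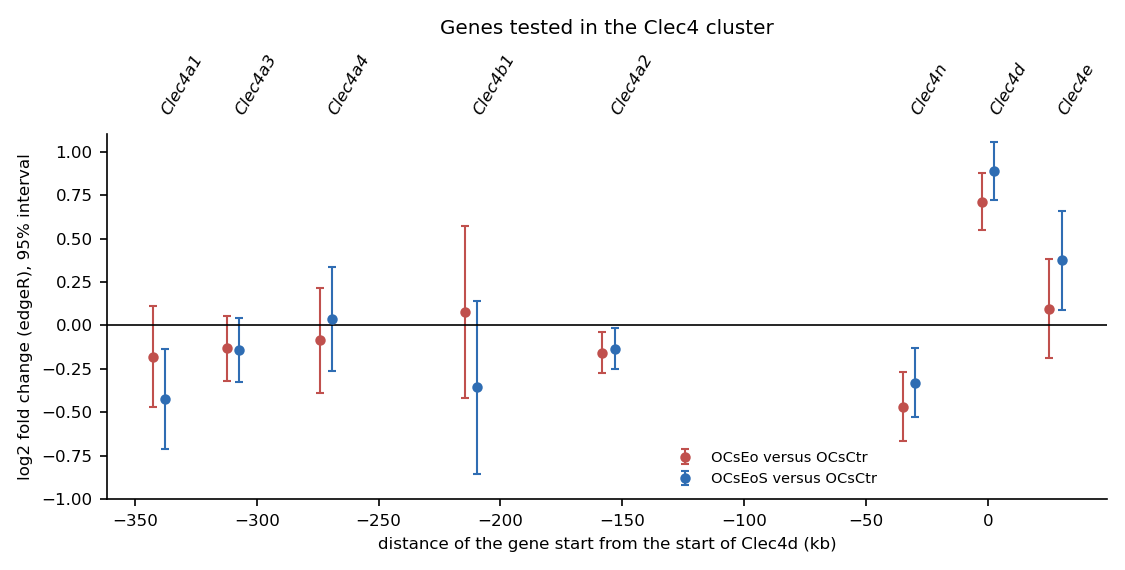
Log2 fold changes with 95% intervals (edgeR) are plotted against the distance of the gene start from that of Clec4d in kb for 8 of the 9 tested genes, Gm44132 with its wide interval being left out. Clec4d stands alone above 0.5, and Clec4n, 32.3 kb before it, lies below 0 in both comparisons.

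Leaving out OCsCtr 1 made no call for the 8 genes other than Clec4d and Clec4n. In OCsEo versus OCsCtr, the log2 fold change without it was 0.01 for Clec4e, -0.29 for Clec7a, 0.28 for Clec5a, -0.24 for Clec4a1, -0.20 for Clec4a2, -0.18 for Clec4a3, 0.36 for Clec10a and -0.004 for Clec12a, whose sign thereby turned. In OCsEoS versus OCsCtr it was 0.28 for Clec4e, -0.20 for Clec7a, 0.26 for Clec5a, -0.49 for Clec4a1, -0.19 for Clec4a2, -0.20 for Clec4a3, 0.31 for Clec10a and -0.20 for Clec12a. Without it, Clec4a2 (adjusted p = 0.0166 and 0.0200 in OCsEo and OCsEoS) and, in OCsEoS, Clec12a (adjusted p = 0.0435) passed the adjusted p.

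Among the other activating receptors, Clec7a and Clec5a were not called. Clec7a, the beta-glucan receptor Dectin-1 with its own hemITAM, had 17.7 to 30.7 CPM in OCsCtr, 19.1 to 26.5 CPM in OCsEo and 20.1 to 25.9 CPM in OCsEoS. Its log2 fold change was -0.17 (95% interval -0.48 to 0.14) in OCsEo and -0.07 (95% interval -0.38 to 0.24) in OCsEoS, where 3 of the 23 alternatives gave a value above 0 (up to 0.06). The annotation types Clec7a as a polymorphic pseudogene of the reference strain. Clec5a, the receptor MDL-1 that pairs with DAP12 and DAP10 and takes part in inflammatory bone erosion in mice, had 52.8, 42.6, 48.4 and 43.2 CPM in OCsCtr, 59.0, 48.3, 52.5 and 58.2 CPM in OCsEo and 61.9, 51.0, 55.2 and 47.5 CPM in OCsEoS. The Clec5a groups overlapped. Its 95% interval lay above 0 in both comparisons (0.02 to 0.42 in OCsEo, 0.01 to 0.40 in OCsEoS), but after adjustment over all genes it did not pass (adjusted p = 0.119 and 0.130).

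The inhibitory receptors and their relatives had log2 fold changes below 0 in both comparisons, apart from Clec12a in OCsEo, and none was called. Clec4a2 had 585, 679, 679 and 649 CPM in OCsCtr, 556, 562, 607 and 599 CPM in OCsEo and 569, 581, 616 and 594 CPM in OCsEoS. Only OCsCtr 1 of the untreated libraries lay within the range of the stimulated ones. The log2 fold changes of Clec4a2 were -0.16 (95% interval -0.28 to -0.04, adjusted p = 0.0604) and -0.14 (95% interval -0.25 to -0.02, adjusted p = 0.0936) in OCsEo and OCsEoS. The adjusted p was under 0.05 in 5 of the 23 alternatives in OCsEo and in 3 of 23 in OCsEoS. Of the 50-base words in its transcripts, 6.83% also occur in other genes, such as Clec4a4 and Clec4b1, so that a small part of its reads is uncertain. Clec12a, which senses uric acid crystals, had 436 to 511 CPM in OCsCtr, 466 to 534 CPM in OCsEo and 386 to 468 CPM in OCsEoS, and its log2 fold change was 0.04 after contact with eosinophils (adjusted p = 0.740) and -0.15 after supernatant (adjusted p = 0.116).

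Clec4a1 had 33.9, 39.0, 37.9 and 43.8 CPM in OCsCtr, 33.3, 34.4, 28.9 and 40.1 CPM in OCsEo and 35.3, 32.0, 28.1 and 20.0 CPM in OCsEoS. OCsEoS 4 was the lowest of all libraries, and OCsEoS 1 lay within the untreated range. In OCsEoS its log2 fold change of -0.42 ± 0.14 (SE, 95% interval -0.71 to -0.13, adjusted p = 0.0326) passed the adjusted p but not the cut-off. It was called without OCsEoS 1 (log2 -0.53) and no longer passed the adjusted p without OCsEoS 4 (log2 -0.28, adjusted p = 0.111). In OCsEo it was -0.18 (adjusted p = 0.430). Clec4a3 had 61.3 to 73.2 CPM in OCsCtr, 59.0 to 69.0 CPM in OCsEo and 52.2 to 69.5 CPM in OCsEoS, and its log2 fold change was -0.13 after contact with eosinophils (adjusted p = 0.355) and -0.14 after supernatant (adjusted p = 0.283). OCsEoS 4 was the highest OCsEoS library in Clec4e and Clec4n and the lowest in Clec5a, Clec12a, Clec4a1, Clec4a3 and Clec10a.

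Clec10a, which marks alternatively activated macrophages, had 10.0, 6.65, 7.83 and 7.18 CPM in OCsCtr, 9.50, 8.61, 9.31 and 9.60 CPM in OCsEo and 10.6, 10.2, 9.05 and 6.12 CPM in OCsEoS. Its log2 fold changes of 0.23 and 0.19 had 95% intervals from -0.13 to 0.59 and from -0.18 to 0.55, so that at 210 to 363 counts per library both intervals include a change as large as the cut-off. Mgl2, its closest paralog, had 0 to 6 counts in OCsCtr, 0 to 17 in OCsEo and 17 to 57 in OCsEoS. Of the 50-base words of the Clec10a transcripts, 9.02% occur in other genes, Mgl2 among them, and the assignment of reads between both is to that extent uncertain.

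**Figure D4:**
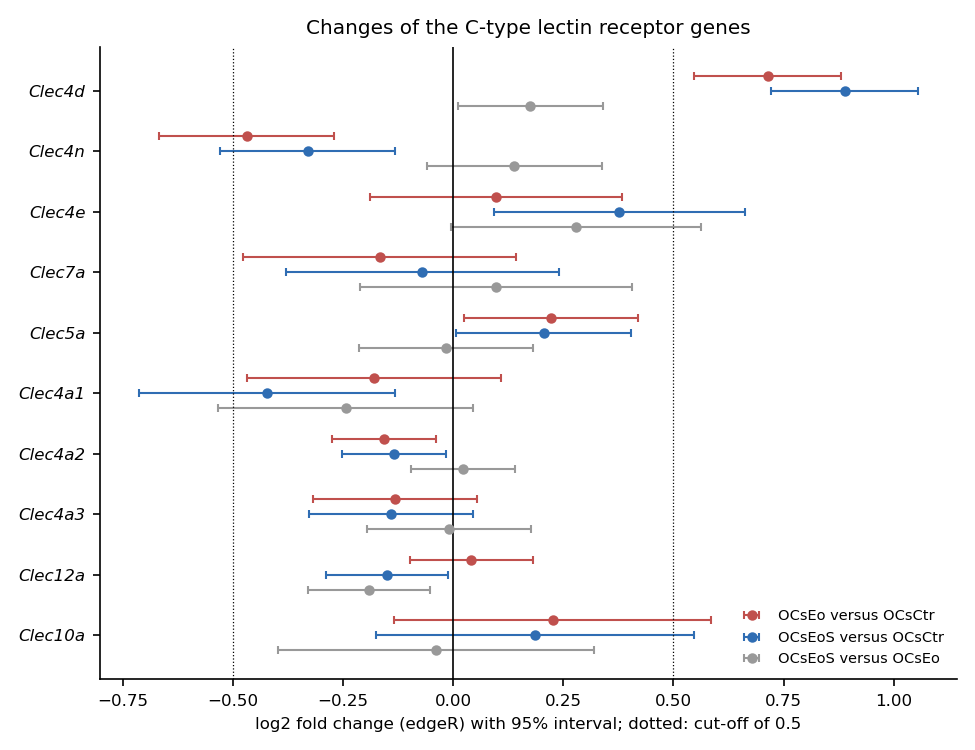
Points are log2 fold changes from edgeR and bars their 95% intervals for the 10 receptor genes in the 3 comparisons, with dotted lines at the cut-off of 0.5 on either side. Clec4d is the gene whose intervals against OCsCtr lie wholly above the cut-off (0.55 to 0.88 and 0.72 to 1.05), and most intervals of OCsEoS versus OCsEo include 0.

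Eosinophils and their supernatant were compared directly in OCsEoS versus OCsEo. None of the 10 genes was called (edgeR), where 0.380% of all tested genes were. At an unadjusted edgeR p under 0.05 there were 2, Clec12a with a log2 fold change of -0.19 (95% interval -0.33 to -0.05) and Clec4d with 0.17 (95% interval 0.01 to 0.34), where 11.1% of all tested genes were under this limit, and DESeq2 called none of the 10 either. Clec4e, at 0.28, had a 95% interval of -0.01 to 0.56, and Clec4a1, at -0.24, had one of -0.53 to 0.05. The intervals of Clec4d and Clec12a thus leave out a difference as large as the cut-off, and those of Clec4e and Clec4a1 do not.

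Genes whose pattern over the 12 libraries was most like that of Clec4d were found by the root mean square difference of centred log2 CPM. The 3 closest were S100a13 (a small calcium-binding protein) at 0.088, Lgals1 (galectin-1) at 0.098 and Tyms (thymidylate synthase) at 0.099, where Clec4d itself spanned 1.15 on the log2 scale. Their log2 fold changes were 0.67, 0.83 and 0.64 in OCsEo and 0.80, 0.91 and 0.74 in OCsEoS. Because the genes were picked for likeness over these same 12 libraries, fold changes near those of Clec4d follow from the choice.

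The signaling partners of the receptors were followed in 6 lists with 87 genes, of which 65 were tested. In OCsEo versus OCsCtr, 4 were called higher and 3 lower, where 5.88% of all tested genes were called in either direction. In OCsEoS versus OCsCtr, 7 were called higher and 3 lower, where 7.73% of all tested genes were called. The same shares stand beside the counts of the single lists below. Fcer1g, the adaptor of Clec4d, Clec4e and Clec4n, had 209.6 ± 18.7 CPM in OCsCtr, 267 ± 18.8 CPM in OCsEo and 211 ± 12.2 CPM in OCsEoS (SD, n = 4). In OCsEo its log2 fold change of 0.35 passed the adjusted p (0.00158) but not the cut-off, and in OCsEoS it was 0.01 (95% interval -0.14 to 0.15). The direct comparison of OCsEoS with OCsEo gave -0.35 for Fcer1g (adjusted p = 0.0261). Clec4d was therefore higher in both groups, and its adaptor passed the adjusted p in 1 of them. Tyrobp, the DAP12 adaptor of Clec5a, had log2 fold changes of 0.11 and -0.03, and Hcst, its DAP10 adaptor, had 0.27 and 0.32, with no adjusted p under 0.05.

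Of 16 adaptors and proximal kinases, 1 was called in each comparison, namely Src, a kinase that osteoclasts need to resorb bone, which fell by 0.55 on the log2 scale in OCsEo and by 0.66 in OCsEoS. Syk, the kinase shared by the activating receptors, had -0.20 after contact with eosinophils (adjusted p = 0.161) and -0.33 after supernatant (adjusted p = 0.0130) on this scale. Of 10 genes of the Card9 and NF-kB branch, 2 were called lower in each comparison. Traf6, a ligase that RANK also uses, fell by 0.73 in OCsEo and 0.66 in OCsEoS, and Rel, an NF-kB subunit, fell by 0.61 and 0.50 on the log2 scale. Card9 itself had -0.08 and -0.35, neither of which passed. Of 8 inhibitory phosphatases and ligases, none was called in OCsEo and Dok2, an adaptor that restrains tyrosine kinase signals, was called higher in OCsEoS (log2 0.59, and 0.45 in OCsEo).

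Of 31 other C-type lectin receptor genes, 17 were tested, of which 2 in OCsEo and 4 in OCsEoS were called, all of them higher. Clec2i, a ligand of NK cell receptors, had log2 fold changes of 0.88 and 1.01, and Cd302, an endocytic receptor, had 0.57 and 0.59. Mrc1, the mannose receptor, was called in OCsEoS (log2 0.80) and had 0.40 in OCsEo. Its groups overlapped, with 7.15 to 17.6 CPM in OCsCtr and 14.5 to 29.0 CPM in OCsEoS. Mgl2 was called in OCsEoS on the low counts given above. Of 5 genes for endogenous ligands, none was called, and Sap130, the ligand of Mincle, had 11.4 ± 1.65, 11.2 ± 2.32 and 10.1 ± 1.21 CPM in the 3 groups. Of 17 inflammatory targets 9 were tested. Ccl2 was called higher in both comparisons (log2 1.12 and 1.34), Ccl3 in OCsEo (1.28) and Ccl4 in OCsEoS (1.02), all 3 being chemokines that attract monocytes and lymphocytes. In OCsEoS versus OCsEo, where 0.380% of all tested genes were called, 1 of the 65 genes was called, namely Ccl3, lower with supernatant (log2 -1.06). This call was lost, leaving 0 of the list genes, in 6 of the 12 fits that left out 1 library (OCsCtr 1, OCsEo 1, OCsEo 2, OCsEo 3, OCsEoS 3 or OCsEoS 4).

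**Figure D5:**
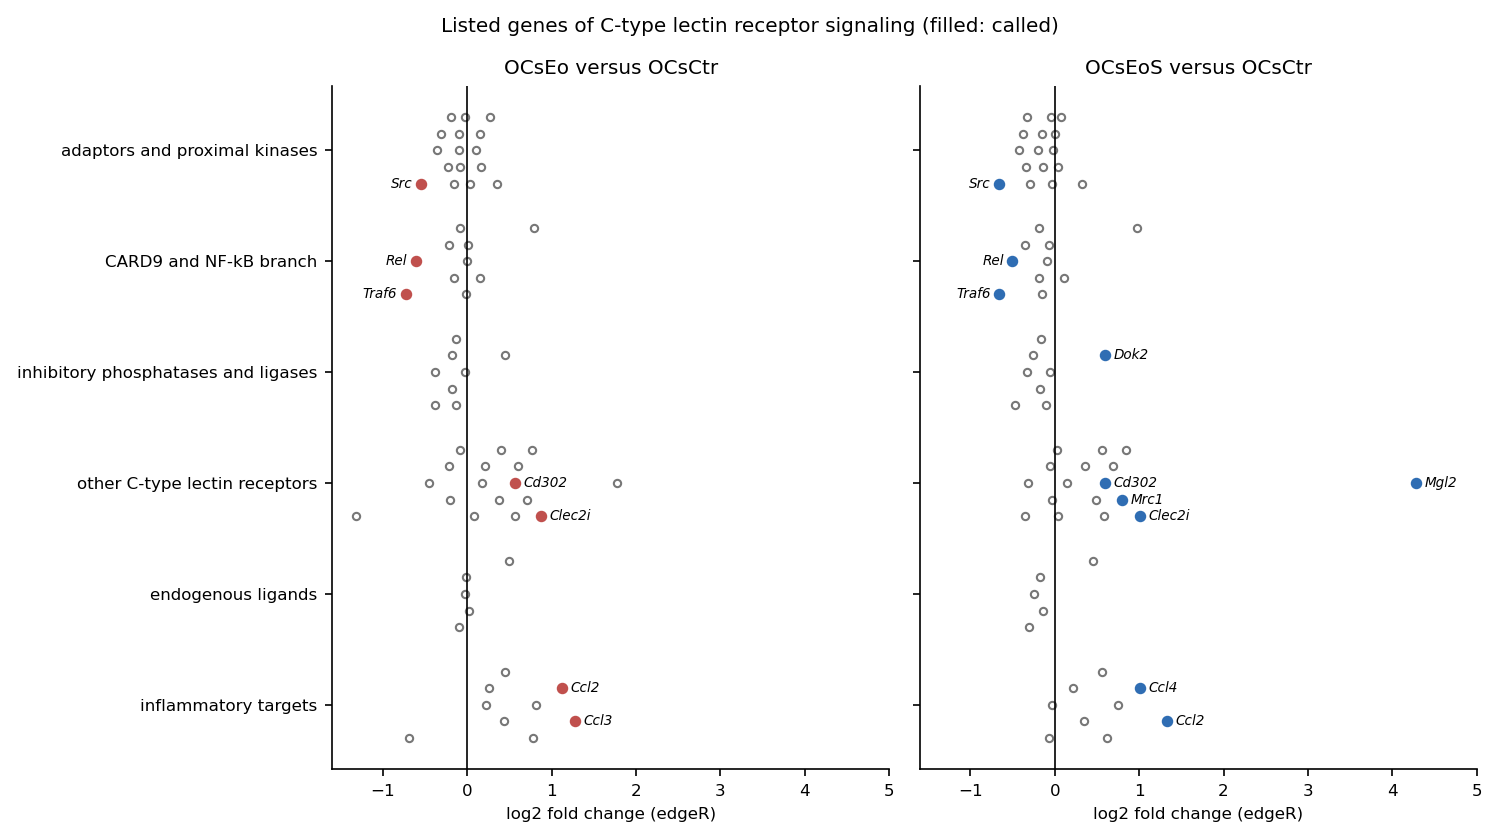
Each circle is the log2 fold change (edgeR) of a tested gene of 6 lists of the receptor pathway in OCsEo (left) and OCsEoS (right) versus OCsCtr, and filled, named circles are called genes. The called genes of the adaptor and NF-kB lists (Src, Traf6, Rel) lie below 0, and those of the lectin and target lists lie above 0, with Mgl2 at 4.29 on few counts.

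Markers of other cell types moved with the groups, and their part in the Clec4d change was not tested. Of 11 osteoclast markers, 8 were called lower in each comparison with OCsCtr. Of all tested genes, 5.88% were called in OCsEo and 7.73% in OCsEoS, in either direction. Of 7 macrophage markers, Cd14 was called higher in OCsEo (log2 0.58), and Cd14 (log2 0.69) and Adgre1 (log2 0.56) were called higher in OCsEoS, where Cd68 had a log2 fold change of -0.33 (adjusted p = 6.16e-04) under the cut-off and Itgam had -0.10. Their summed level ranged from 5272 to 5789 CPM in OCsCtr, 5791 to 7239 CPM in OCsEo and 5471 to 6452 CPM in OCsEoS. Most of this sum was Lyz2, with means of 4251, 4921 and 4775 CPM in OCsCtr, OCsEo and OCsEoS. Neutrophils also express Clec4d. The summed level of 12 neutrophil markers was 342 to 489 CPM in OCsCtr, 496 to 649 CPM in OCsEo and 390 to 451 CPM in OCsEoS. Its largest parts were S100a9 and S100a8, with means of 161 and 114 CPM in OCsCtr. Camp (log2 0.51) and Elane (log2 0.99) were called higher in OCsEo, and none of the 12 was called in OCsEoS versus OCsCtr. In OCsEoS versus OCsEo, 3 of the 12 were called lower, where 0.380% of all tested genes were called. Of 11 eosinophil markers, 6 were tested. In OCsEo, 3 were called higher (Siglecf, Alox15 and Il5) and the other 3 had log2 fold changes below 0. Among these, Prg2 had 5.49 CPM in OCsEo beside 5.53 CPM in OCsCtr (log2 -0.01), and Ear2 had a log2 fold change of -0.20. Prg2 was called lower in OCsEoS (log2 -2.74). Il5 had 2.61 ± 1.12 CPM and Alox15 had 11.0 ± 4.34 CPM in OCsEo (SD, n = 4), beside 0.0074 ± 0.015 and 0.30 ± 0.25 CPM in OCsCtr, whereas Epx, Prg3, Ear1, Ear6 and Il5 had no counts in any OCsEoS library. Their summed level was 57.1 to 73.7 CPM in OCsCtr, 61.6 to 86.3 CPM in OCsEo and 49.3 to 55.5 CPM in OCsEoS, and most of it was Ccr3 with means of 59.6, 48.7 and 50.7 CPM, lower in both comparisons by the adjusted p but not past the cut-off. Of 6 dendritic cell markers, 1 (Zbtb46) was called lower in OCsEo and none in OCsEoS, and their sum stayed between 4.58 and 13.7 CPM. None of the 7 tested markers of T, B and mast cells or basophils was called, and their sum stayed between 6.51 and 17.6 CPM.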

How the data were processed

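RNA was sequenced in 12 libraries (NEBNext Ultra, paired-end). The authors cleaned the reads (fastp in the submitters' processing notes), aligned them with HISAT2 2.0.5 to GRCm38/mm10, obtained counts per gene from featureCounts and deposited them raw, together with gene positions and lengths. Annotation release and strand setting are not given in the sources used here. The study describes plotted symbols as individual mice, the labels name no mouse, and p-values measure the spread between these libraries.

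Counts were analysed in R 4.3.3 with edgeR 4.0.16. Low genes were removed by filterByExpr (minimum count 10), TMM gave scaling factors of 0.968 to 1.03, and all 12 libraries, in 3 groups, entered 1 fit that was tested with the quasi-likelihood F-test and Benjamini-Hochberg adjustment over 13681 genes. Calls needed an adjusted p under 0.05 and a log2 fold change over 0.5 in size. Intervals of 95% come from the same fit, and depth enters through the counts. Replicate libraries differed by more than counting noise (chi-square per degree of freedom 10.1 to 36.1 in 18 pairs). The receptor genes, lists and comparisons were chosen with earlier results of these data known. The text names the 10 receptors, the 3 genes most alike in pattern to each called receptor, and list members that were called, are among the 5 highest of their list or are a receptor's adaptor. Other list members named beside a count were chosen after their values were seen. A macrophage marker planned for its list is not reported here. Motifs were searched in RefSeq windows on both strands.

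Alternatives were DESeq2 1.42.0 on all libraries or 2 groups, size factors of DESeq2, upper-quartile scaling, no filter, a filter of 10 counts in each library, edgeR restricted to 2 groups, no cut-off, a cut-off of 1, a replicate block and each library left out. After the data were seen, a fit without each library's trend on gene length was added. The code was tested on simulated data.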

Additional observations from a re-analysis of the deposited data

Results flagged for a closer look

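In 1 of 30 groups of 4 libraries, 1 library stood far from the other 3. Clec4a3 had 69.0 CPM in OCsEo 4, the nearest other OCsEo library had 60.5 CPM, and this gap was 0.849 of the range of the group, above the 95% critical value of Dixon's test. Chance alone flags about 1 in 20 such groups. The value lies within the OCsCtr range, and Clec4a3 was not called in any comparison.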

How the results depend on the processing

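Against OCsCtr, signs turned under some of the 23 alternatives for Clec12a in OCsEo (1 of 23, without OCsCtr 1) and Clec7a in OCsEoS (3 of 23, between -0.20 and 0.06), neither of them called. Clec4d ranged from 0.62 to 0.78 in OCsEo and from 0.77 to 0.96 in OCsEoS, had an adjusted p under 0.05 in all 23, and was uncalled only at the cut-off of 1. The number of receptor genes called was 1 in OCsEo and 1 in OCsEoS. It became 2 and 3 without a cut-off on the fold change, 0 and 0 with the cut-off of 1, and 2 and 2 after taking out each library's trend on gene length (Clec4n at -0.56 in OCsEo, Clec4a1 at -0.54 in OCsEoS), a setting added after the data were seen. With each library left out it ranged from 1 to 2 in both comparisons, with 2 without OCsCtr 1 in OCsEo (Clec4n) and 2 without OCsEoS 1 in OCsEoS (Clec4a1). The listed pathway genes called numbered 7, 10 and 1 in OCsEo, OCsEoS and OCsEoS versus OCsEo. They became 13, 19 and 3 without a cut-off, and 2 and 4 in the first 2 comparisons with the cut-off of 1. In OCsEoS versus OCsEo they ranged from 0 to 1 with each library left out, with 0 (Ccl3 lost) without OCsCtr 1, OCsEo 1, OCsEo 2, OCsEo 3, OCsEoS 3 or OCsEoS 4. The cause of these changes was not tested beyond the construction of the cut-offs.

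Libraries share replicate numbers, and the labels do not say whether these pair samples. Deviations from the group means correlated weakly in the 12 same-numbered pairs (r from -0.04 to 0.09, none over 0.1). In 9 of the 12, the own number nevertheless gave the highest correlation. These values cannot decide whether the numbers pair samples, and the main fit treated the libraries as unpaired. With the replicate block, the receptor genes called stayed at 1, 1 and 0, and the listed pathway genes were 9, 11 and 1. With 4 libraries a group, changes under the cut-off in Clec10a and Clec7a are limited by spread and by counts of 210 to 986. Both 95% intervals of Clec7a against OCsCtr nevertheless leave out a change as large as the cut-off. Among receptor genes not called, intervals reached past the cut-off for Clec10a and Clec4n in both comparisons. In OCsEoS versus OCsCtr, those of Clec4e and Clec4a1 did so too.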
